A study of Homo sapiens with 8 samples.

Results

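The genes described here are 55 genes of G2/M phase and mitosis, taken as a fixed list of textbook genes and read from the table by Ensembl identifier. The table held 20263 genes, each of the 55 was found once, and each passed the filter on low values that left 11725 genes for testing. The list follows the known roles of the genes, and it was drawn up with earlier results of these libraries known. PANC-1, the only cell line of the series, is a long-established human line grown from a ductal carcinoma of the pancreas. The cells were treated for 24 h with 10 µM Eupalinolide B (EB), a natural compound from Eupatorium lindleyanum, or with dimethyl sulfoxide (DMSO), its vehicle, and each group was sequenced as 4 mRNA libraries. The methods speak of 4 biological replicates and also of triplicates, and all 8 libraries were used here. A single dose and a single time were used. The values are TPM, which give each gene its part of all transcripts in a library, corrected for transcript length and scaled to the same sum in every library, so that levels of different genes can be set side by side per length. The columns are headed by a letter and a number, and the letter C was read as control and H as EB.

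A cell enters mitosis when cyclin-dependent kinase 1, bound to cyclin A and then to B-type cyclins, is switched on by CDC25 phosphatases. The chromosomes are then condensed, attached to spindle microtubules through their kinetochores, held by the spindle checkpoint until every kinetochore is attached, and separated once the anaphase-promoting complex marks securin and cyclin B for destruction. Most of these genes are transcribed mainly late in the cell cycle, by factors that include FOXM1 and B-MYB, and the summed level of such genes is commonly read as a measure of proliferation in tumor cells.

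Many promoters of this class carry a cell cycle genes homology region (CHR), bound by the MuvB complexes, and CCAAT boxes, bound by NF-Y. The RefSeq table of promoter windows on GRCh38.p14, from 250 bases before to 50 bases after a transcript start, held 48 of the 55 genes. The letters TTTGAA or TTCGAA, searched on both strands, stood in 36 of these 48 windows (75%) and in 16.4% of all 35116 windows. CCAAT, or ATTGG on the other strand, stood in 35 of the 48 (72.9%) and in 34.6% of all windows. Both kinds of letters stood together in 28 of the 48 (58.3%) and in 6.38% of all windows, and at least 2 CCAAT matches in 22 of the 48 (45.8%) and in 10.8% of all windows. Matches were counted wherever they occurred, overlapping ones included. For each of the 48 genes only the first window listed was used, while the shares of all windows count every window.

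The 140 bases before the RefSeq start are printed for 6 of these genes, 5′ to 3′ on the strand of the gene, with matches of either kind in capitals, so that promoters with the same letters can be set beside the different changes given further on. On the values as deposited, CCNB1, CCNB2, CDK1 and CDC20 stand for genes whose level did not pass the test, MKI67 for one that fell and CKS1B for one that rose, and the last pair was picked after the values were seen. With the trend on transcript length removed, as described below, MKI67 and CKS1B no longer passed and CCNB2 fell. Up to 28 bases of a stretch lie inside the gene as GENCODE annotates it. No stretch is printed for PLK1 or AURKB, since it lies within the annotated gene.
CCNB1 (chr5:69167010-69167149, plus strand): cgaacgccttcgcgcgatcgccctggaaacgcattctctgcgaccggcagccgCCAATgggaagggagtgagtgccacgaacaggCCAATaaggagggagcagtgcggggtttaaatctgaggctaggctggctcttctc
CCNB2 (chr15:59105006-59105145, plus strand): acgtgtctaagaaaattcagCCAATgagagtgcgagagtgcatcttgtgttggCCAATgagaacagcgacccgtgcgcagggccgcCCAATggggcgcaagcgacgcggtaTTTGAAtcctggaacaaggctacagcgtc
CDK1 (chr10:60778191-60778330, plus strand): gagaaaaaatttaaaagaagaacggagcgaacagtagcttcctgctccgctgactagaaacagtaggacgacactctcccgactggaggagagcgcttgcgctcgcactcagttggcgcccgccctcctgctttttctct
CDC20 (chr1:43358841-43358980, plus strand): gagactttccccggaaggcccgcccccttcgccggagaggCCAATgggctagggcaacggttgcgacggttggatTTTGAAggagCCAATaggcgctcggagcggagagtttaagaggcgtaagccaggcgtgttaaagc
MKI67 (chr10:128126424-128126563, minus strand): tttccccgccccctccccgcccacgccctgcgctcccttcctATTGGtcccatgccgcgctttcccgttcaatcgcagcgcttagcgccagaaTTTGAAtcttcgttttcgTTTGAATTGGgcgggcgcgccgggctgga
CKS1B (chr1:154974541-154974680, plus strand): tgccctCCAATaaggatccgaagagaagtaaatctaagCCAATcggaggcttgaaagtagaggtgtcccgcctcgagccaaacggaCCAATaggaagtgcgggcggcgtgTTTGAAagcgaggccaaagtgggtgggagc

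In CCNB2, MKI67 and CKS1B a TTTGAA began 29, 29 and 30 bases before the start, and CCNB2 and CKS1B each held 3 CCAAT matches upstream of it within the stretch. In MKI67 the nearer TTTGAA shares 1 letter with an ATTGG. The CDK1 stretch holds none of these letters, and its window holds 1 match of each kind further upstream. The letters that mark a CHR stood in 5 of the 8 windows of genes that rose, in 12 of the 16 of genes that fell and in 19 of the 24 of genes that did not pass the test. A match of letters is a description of the window and no evidence of binding.

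The 2 groups were compared with limma on the log2(TPM + 1) scale, with p-values adjusted over all 11725 genes by the method of Benjamini and Hochberg, and a gene is said to rise or fall where its adjusted p was under 0.05. With EB, 9 of the 55 genes rose and 16 fell, and 30 did not pass the test. The largest falls were those of the kinesin KIF14, the spindle pole protein ASPM, the topoisomerase TOP2A, the proliferation marker MKI67, the cytokinesis regulator ECT2 and the kinesin KIF20A. The largest rises were those of the securin PTTG1, the kinase AURKB, the kinetochore proteins SPC25, SPC24 and NDC80 and the CDK subunit CKS1B. Among the 30 that did not pass were CCNB1, CCNB2, CDK1, PLK1, AURKA, CDC20 and FOXM1, of which CDK1 just missed the threshold (limma adjusted p = 0.0518). Of the genes of the mitotic CDK switch, CCNA2 and CDC25B fell and CKS1B and CKS2 rose.

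These counts lay near those of the whole table. Of all genes tested, 40.3% passed, 15.2% higher and 25.1% lower with EB, and of the 55 genes 45.5% passed, 16.4% higher and 29.1% lower. The 55 genes had a median log2 fold change of -0.18 (quartiles -0.47 and 0.14), and all genes tested one of -0.11 (quartiles -0.51 and 0.28). None of the 55 combined an unadjusted p under 0.05 with a log2 fold change beyond 1.5 in size, thresholds that 2.08% of all genes passed. In 10 of the 55 genes every EB library was above every DMSO library and in 16 every one was below, together 47.3% of the genes, while the groups did not overlap in 36.8% of all genes. Of the 25 genes that rose or fell, 24 had groups that did not overlap, the exception being CDC25B. For a gene without overlap the exact two-sided permutation test gives p = 0.0286, the smallest that 4 against 4 libraries allow.

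**Figure D1:**
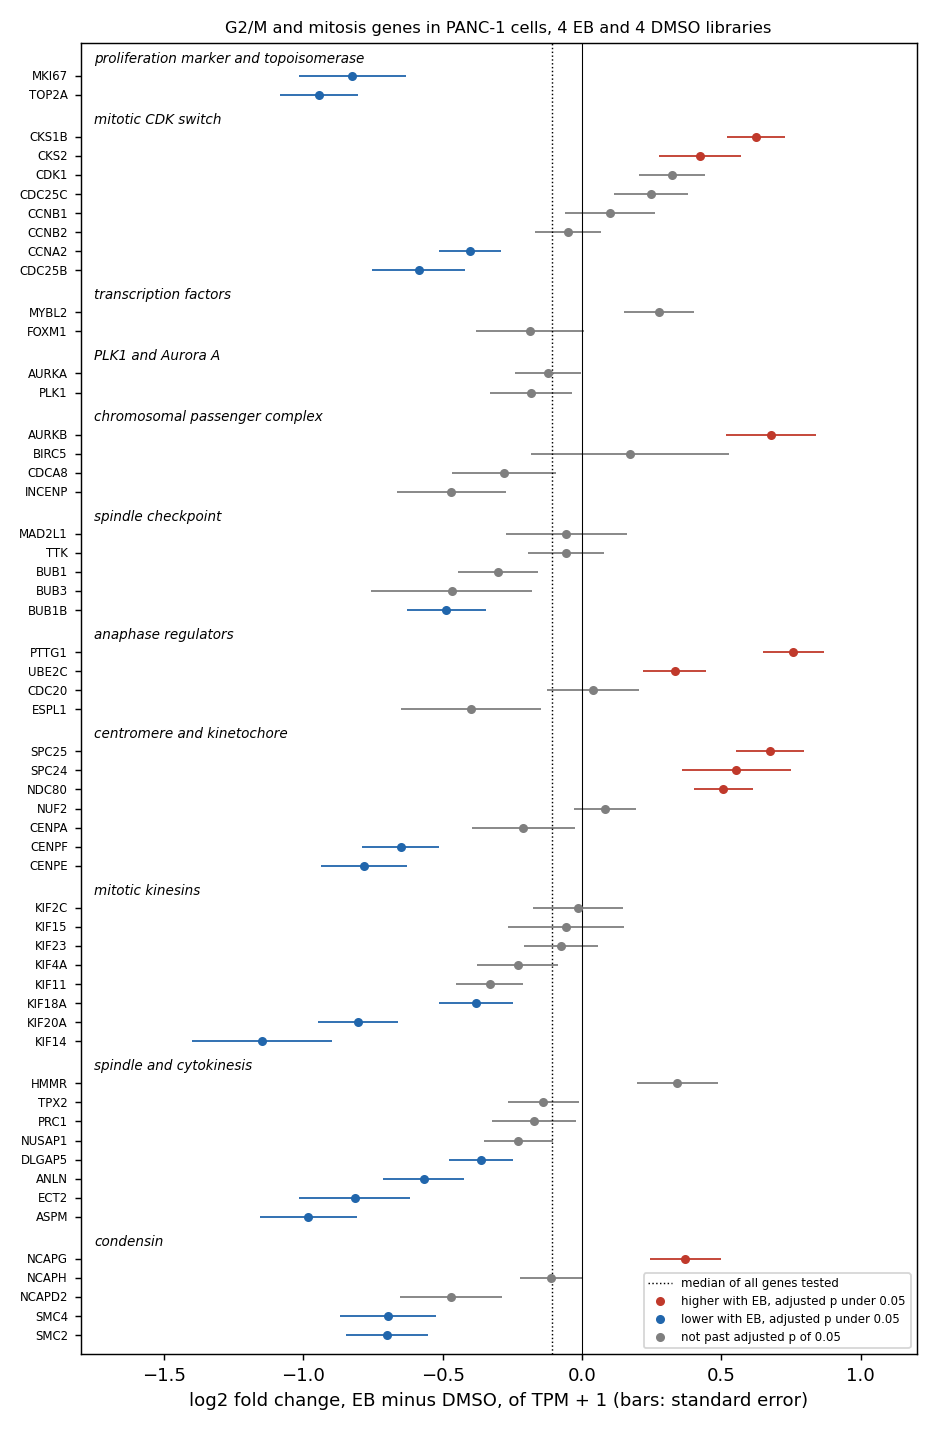
Log2 fold change (EB minus DMSO, of TPM + 1) of the 55 genes with its limma standard error, grouped by role, 4 libraries per group. Red points rose, blue points fell and grey points did not pass an adjusted p of 0.05; the dotted line is the median of all genes tested at -0.11. The points run from KIF14 at -1.15 to PTTG1 at 0.76, and most roles hold points on both sides of 0.

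Summed over the 55 genes, the TPM were 5588, 5406, 5708 and 4557 in DMSO replicates 1 to 4 and 5614, 5823, 5474 and 5305 in EB replicates 1 to 4. The sums overlapped (5315 ± 520 and 5554 ± 219, SD, n = 4 each), and the geometric mean over the 55 genes was 61.6 ± 6.15 TPM with DMSO and 54.2 ± 4.37 TPM with EB (SD, n = 4 each). The geometric means overlapped too, at 52.7 to 66.6 TPM with DMSO and 50.3 to 60.2 TPM with EB. TPM have a fixed sum, so both measures also move with the part taken by mitochondrially encoded genes. That part was 17% to 39% with DMSO and 11.6% to 20.3% with EB. Neither measure was recomputed without the mitochondrially encoded genes. Without them the median log2 fold change was -0.28 over all genes and -0.37 over the 55 genes. In cells taken in bulk, a change in the share of cells in G2/M and a change in RNA of these genes per cell cannot be told apart.

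DMSO replicate 4 stood apart from the other libraries. The 13 mitochondrially encoded genes took 39% of its TPM, 17% to 21.1% in the other DMSO libraries and 11.6% to 20.3% in the EB libraries. Without this library 11 of the 55 genes rose and 25 fell, against 15.6% and 37% of all genes, and no gene that had passed was lost. CDK1 and HMMR then rose, and FOXM1, BUB1, ESPL1, INCENP, CDCA8, CENPA, KIF4A, KIF11 and NCAPD2 then fell. Since TPM have a fixed sum, the split also moved with the scaling. Median-ratio scaling gave 12 rises and 15 falls (26.8% and 25.6% of all genes), quantile normalization 6 and 20 (23.8% and 23.5%), and removal of the mitochondrial genes with rescaling 6 and 29 (12.1% and 41.4%). The median of all genes moved from -0.11 to 0.01, 0.02 and -0.28 under these settings, and no gene that rose or fell changed direction under them. INCENP and NCAPD2 fell under all 3 settings, and BUB1, CDCA8 and PLK1 under quantile normalization and without the mitochondrial genes. AURKA, BUB3, CENPA, ESPL1, KIF11, KIF4A, NCAPH and PRC1 fell only in the last of the 3, and CDK1, CDC25C and MYBL2 rose only under median-ratio scaling among the 3.

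The epithelial keratins KRT8, KRT18 and KRT19 were abundant in every library. KRT18 was at 342 to 425 TPM with DMSO and 1024 to 1204 TPM with EB. SOX9, a factor of duct cells, fell, at 128 to 172 TPM with DMSO and 43.9 to 72.1 TPM with EB (limma adjusted p = 0.00042). KRT7 and EPCAM were under 1 TPM throughout, against the usual marker set of duct cells. Of 11 markers of acinar, islet, blood, endothelial and stromal cells, 8 were listed at 0 in all libraries, and 10 were under 1 TPM. The summed level of these 11 markers was 62.3 to 90.4 TPM with DMSO and 37.9 to 49.6 TPM with EB, nearly all of it from the collagen gene COL1A2, and its part in the results was not tested. The defining acinar, islet and blood cell markers PRSS1, CPA1, INS, GCG, PTPRC and CD3E were among those at 0.

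The proliferation marker and the topoisomerase both fell. TOP2A, which untangles sister chromatids and is the target of etoposide, was at 120, 125, 131 and 112 TPM in DMSO replicates 1 to 4 and at 62.3, 78.9, 54.5 and 57.7 TPM in EB replicates 1 to 4. Every EB library was below every DMSO library, and the log2 fold change was -0.94 ± 0.14 (SE, limma adjusted p = 0.00104). MKI67, which encodes the Ki-67 antigen that coats mitotic chromosomes, was at 83.2, 87.9, 104 and 74 TPM with DMSO and at 44.5, 69.7, 38 and 46.7 TPM with EB. Again the groups did not overlap, although EB replicate 2 came within a few TPM of DMSO replicate 4, and the log2 fold change was -0.82 ± 0.19 (limma adjusted p = 0.00839). MKI67 has the longest transcript of the 55, at 12716 nt, and without the trend on transcript length described below its log2 fold change was -0.27 (limma adjusted p = 0.135).

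Among the 8 genes of the mitotic CDK switch, 2 rose, 2 fell and 4 did not pass. CCNB1, the main mitotic cyclin, was at 246, 199, 200 and 159 TPM with DMSO and at 231, 204, 244 and 179 TPM with EB. The groups overlapped fully, and the log2 fold change of 0.10 ± 0.16 was smaller than its error (limma adjusted p = 0.648). CDK1, its kinase, was at 42, 37.2, 44.4 and 43.3 TPM with DMSO and at 52.6, 58, 51.2 and 48.1 TPM with EB. All 4 EB libraries were above the DMSO libraries, but at a log2 fold change of 0.32 ± 0.12 CDK1 just missed the threshold (limma adjusted p = 0.0518), and it passed without DMSO replicate 4 (0.34, limma adjusted p = 0.0273). CCNA2, the cyclin of S phase and early mitosis, was at 51.7, 52.3, 54.7 and 52.8 TPM with DMSO and fell to 37.4, 44.5, 39.1 and 38.5 TPM with EB. The DMSO libraries were tightly grouped, and the log2 fold change was -0.40 ± 0.11 (limma adjusted p = 0.0175). Its adjusted p passed 0.05 without DMSO replicate 3 (0.0531), EB replicate 1 (0.0556) or EB replicate 3 (0.0508) and under median-ratio scaling (-0.27, limma adjusted p = 0.0887).

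CKS1B and CKS2 encode close paralogs, small subunits that CDK complexes need to bind their phosphorylated substrates. CKS1B was at 187, 193, 200 and 194 TPM with DMSO and rose to 294, 292, 308 and 301 TPM with EB. With a spread of a few TPM within each group, its log2 fold change was 0.62 ± 0.10 (limma adjusted p = 0.00181). CKS2 was the most abundant of the 55 genes, at 580, 532, 587 and 426 TPM with DMSO and 821, 640, 737 and 647 TPM with EB. The groups did not overlap, and the log2 fold change was 0.42 ± 0.15 (limma adjusted p = 0.043). CKS2 no longer passed with any 1 library other than DMSO replicate 4 or EB replicate 2 left out (limma adjusted p = 0.054 to 0.119), nor with a pseudocount of 0.1 (limma adjusted p = 0.0513), under quantile normalization (0.16, limma adjusted p = 0.156) or with the mitochondrial genes removed (0.24, limma adjusted p = 0.0636). Both transcripts are short, 779 and 616 nt, and with the length trend removed the log2 fold change was 0.27 for CKS1B (limma adjusted p = 0.0962) and 0.05 for CKS2 (limma adjusted p = 0.648). With a trend on length and GC content removed, CKS1B rose (0.28, limma adjusted p = 0.03) and CKS2 did not pass (0.06, limma adjusted p = 0.682). GENCODE names 7 pseudogenes of CKS1B, so reads of this gene may have been shared among copies.

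Of the phosphatases that switch CDK1 on, CDC25B fell by 0.59 on the log2 scale (SE 0.17, limma adjusted p = 0.0202), although DMSO replicate 4, at 120 TPM, was below EB replicate 2, at 123 TPM. That call was lost without DMSO replicate 1, 2 or 3 or EB replicate 4 (limma adjusted p = 0.0537 to 0.0615). CDC25C did not pass (log2 fold change 0.25), nor did the second B-type cyclin CCNB2 (-0.05). CCNB2 was at 111 to 133 TPM with DMSO and 115 to 133 TPM with EB.

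The transcription factors of this program did not pass the test. FOXM1, the forkhead factor of G2/M promoters, was at 57.3, 62.8, 66.3 and 36.7 TPM with DMSO and at 45.5, 56.9, 41.6 and 47.8 TPM with EB. The DMSO range enclosed the EB range because of DMSO replicate 4, and the log2 fold change was -0.19 ± 0.19 (limma adjusted p = 0.465). Without that library it was -0.37 (limma adjusted p = 0.0341). MYBL2, which encodes B-MYB, was at 418, 449, 495 and 378 TPM with DMSO and at 513, 571, 494 and 521 TPM with EB. One EB library lay just under the highest DMSO library, and the log2 fold change was 0.27 ± 0.13 (limma adjusted p = 0.105).

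The kinases PLK1 and AURKA, which mature the centrosomes and start mitosis, did not pass. PLK1 was at 191, 217, 225 and 159 TPM with DMSO and at 164, 182, 154 and 194 TPM with EB, with a log2 fold change of -0.18 ± 0.15 (limma adjusted p = 0.34). AURKA was at 96.2, 95.1, 97.4 and 79.7 TPM with DMSO and at 85.1, 89.7, 84.4 and 78.5 TPM with EB, with a log2 fold change of -0.12 ± 0.12 (limma adjusted p = 0.439). For both genes the groups overlapped, with DMSO replicate 4 inside the EB range of AURKA and DMSO replicates 1 and 4 inside that of PLK1. PLK1 fell under quantile normalization (-0.39, limma adjusted p = 0.0222) and with the mitochondrial genes removed (-0.37, limma adjusted p = 0.0354). AURKA fell with the mitochondrial genes removed (-0.31, limma adjusted p = 0.0159), and under median-ratio scaling its log2 fold change was 0.01 and did not pass.

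In the chromosomal passenger complex, which corrects faulty attachments and sets the cleavage plane, 1 of 4 subunits rose. AURKB, its kinase, was at 147, 120, 132 and 93.9 TPM with DMSO and at 186, 231, 194 and 173 TPM with EB. The groups were clearly apart, and the log2 fold change was 0.68 ± 0.16 (limma adjusted p = 0.00956). BIRC5, which encodes survivin, was at 57.3, 34.2, 75.8 and 22.1 TPM with DMSO and at 58.6, 31.3, 51.6 and 56.5 TPM with EB. The spread within DMSO was more than 50 TPM, so that a log2 fold change of 0.17 ± 0.36 could not be told from 0 (limma adjusted p = 0.724). The scaffold INCENP (-0.47, limma adjusted p = 0.0794) and borealin, encoded by CDCA8 (-0.28, limma adjusted p = 0.256), did not pass. INCENP fell under median-ratio scaling (-0.34, limma adjusted p = 0.041), quantile normalization (-0.49, limma adjusted p = 0.0107) and without the mitochondrial genes (-0.65, limma adjusted p = 0.00484), and CDCA8 under the latter pair (-0.37 and -0.46, limma adjusted p = 0.022 and 0.00966). Both fell without DMSO replicate 4 (-0.65 and -0.46, limma adjusted p = 0.00532 and 0.0144).

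Of the 5 genes of the spindle checkpoint, which delays anaphase, 1 fell. BUB1B, which encodes the checkpoint protein BubR1, was at 39.9, 39.4, 41.3 and 33.5 TPM with DMSO and at 28.1, 33.3, 24.6 and 23.5 TPM with EB. DMSO replicate 4 lay just above EB replicate 2, and the log2 fold change was -0.49 ± 0.14 (limma adjusted p = 0.0218). It no longer passed with DMSO replicate 1, 2 or 3 or EB replicate 3 or 4 left out (limma adjusted p = 0.0528 to 0.0665). The read-through gene BUB1B-PAK6 overlaps it on the same strand. BUB1 (-0.30), BUB3 (-0.47), TTK (-0.06) and MAD2L1 (-0.06) did not pass, and BUB3 ranged from 48.3 to 128 TPM among the DMSO libraries alone.

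Anaphase regulators held the gene with the largest rise. PTTG1, the securin that holds separase inactive until anaphase, was at 308, 291, 290 and 288 TPM with DMSO and at 469, 476, 536 and 515 TPM with EB. No EB library came near the DMSO libraries, and the log2 fold change was 0.76 ± 0.11 (limma adjusted p = 0.000889), a mean of 294 ± 9.13 TPM against 499 ± 32.1 TPM (SD, n = 4 each). CDC20, the activator of the anaphase-promoting complex, was at 372, 350, 355 and 237 TPM with DMSO and at 368, 341, 335 and 291 TPM with EB. These ranges overlapped, and the log2 fold change was 0.04 ± 0.16 (limma adjusted p = 0.868). UBE2C, the ubiquitin-conjugating enzyme of that complex, rose by 0.33 ± 0.11 on the log2 scale (limma adjusted p = 0.0406), from 249 to 277 TPM with DMSO to 298 to 350 TPM with EB. The UBE2C call was lost with any 1 library left out other than DMSO replicate 4 or EB replicate 1 (limma adjusted p = 0.0617 to 0.107), under quantile normalization (0.11, limma adjusted p = 0.43) and with the mitochondrial genes removed (0.15, limma adjusted p = 0.343). GENCODE names 5 pseudogenes of UBE2C. Separase, encoded by ESPL1, did not pass (-0.40, limma adjusted p = 0.228).

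At the centromere and kinetochore 3 genes rose and 2 fell. The 3 that rose are subunits of the NDC80 complex, the 4-part rod that binds microtubules at the outer kinetochore. NDC80 was at 44.2, 44.6, 44.4 and 44 TPM with DMSO and at 58.6, 65.8, 64.5 and 64.6 TPM with EB, a log2 fold change of 0.51 ± 0.11 (limma adjusted p = 0.0051). SPC25 was at 34, 32.2, 28.8 and 32.9 TPM with DMSO and at 46.5, 58, 53.8 and 48.8 TPM with EB, a log2 fold change of 0.68 ± 0.12 (limma adjusted p = 0.0026). Both genes were far apart between the groups beside the spread within them. SPC24 was at 26.5, 20.6, 25.6 and 13.9 TPM with DMSO and at 31.6, 29.2, 29.6 and 35.3 TPM with EB, a log2 fold change of 0.55 ± 0.19 (limma adjusted p = 0.0447). Its DMSO libraries varied more, and the call was lost without DMSO replicate 2 or any 1 EB library (limma adjusted p = 0.0654 to 0.103), with a pseudocount of 0.1 (limma adjusted p = 0.0528) and without the filter on low values (limma adjusted p = 0.0683). The partner NUF2 did not pass, at 46.5 to 54 TPM with DMSO and 49.6 to 54.4 TPM with EB (log2 fold change 0.08 ± 0.11, limma adjusted p = 0.574). SPC25 overlaps NOSTRIN and G6PC2 on the opposite strand, and whether the counting used strand is not given in the sources used here.

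The pair that fell are large kinetochore proteins of the outer corona. CENPE, a kinesin that carries chromosomes to the spindle equator, was at 9.99, 11.1, 12.8 and 11.2 TPM with DMSO and at 6.07, 8.2, 4.92 and 5.65 TPM with EB. All EB values were below all DMSO values, with a log2 fold change of -0.78 ± 0.16 (limma adjusted p = 0.00402). CENPF went from 39.7 to 45.9 TPM with DMSO to 23.6 to 32.6 TPM with EB (-0.65 ± 0.14, limma adjusted p = 0.00567). Their transcripts are 8541 and 10290 nt long, and with the length trend removed the log2 fold change was -0.26 for CENPE (limma adjusted p = 0.163) and -0.11 for CENPF (limma adjusted p = 0.551). CENPA, the histone variant that marks the centromere, did not pass (-0.21, limma adjusted p = 0.387).

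Of 8 mitotic kinesins, the motors of the spindle, 3 fell and none rose, beside 25.1% lower and 15.2% higher over all genes, and 2 of the falls held with the length trend removed. KIF14, a motor of the central spindle, was at 7.12, 8.64, 9.1 and 5.5 TPM with DMSO and at 3.89, 3.9, 2.88 and 1.29 TPM with EB. Its log2 fold change of -1.15 ± 0.25 was the largest of the 55 in size (limma adjusted p = 0.00636). KIF20A, which carries the passenger complex to the central spindle, was at 97.9, 112, 106 and 91.2 TPM with DMSO and at 57.9, 69.6, 47.2 and 58.2 TPM with EB. The groups were more than 20 TPM apart, and the log2 fold change was -0.80 ± 0.14 (limma adjusted p = 0.00246). KIF18A, which dampens chromosome movements, fell by 0.38 on the log2 scale (SE 0.13, limma adjusted p = 0.0449), a call that was lost with any 1 library left out other than DMSO replicate 4 or EB replicate 2 (limma adjusted p = 0.0768 to 0.122) and under median-ratio and quantile scaling. KIF11, the motor that separates the spindle poles, missed the threshold at -0.33 ± 0.12 (limma adjusted p = 0.0523) although its groups did not overlap, and passed without DMSO replicate 4 (-0.34, limma adjusted p = 0.0366) or EB replicate 2 (-0.39, limma adjusted p = 0.0399). KIF4A (-0.23), KIF23 (-0.08), KIF15 (-0.06) and KIF2C (-0.01) did not pass.

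**Figure D2:**
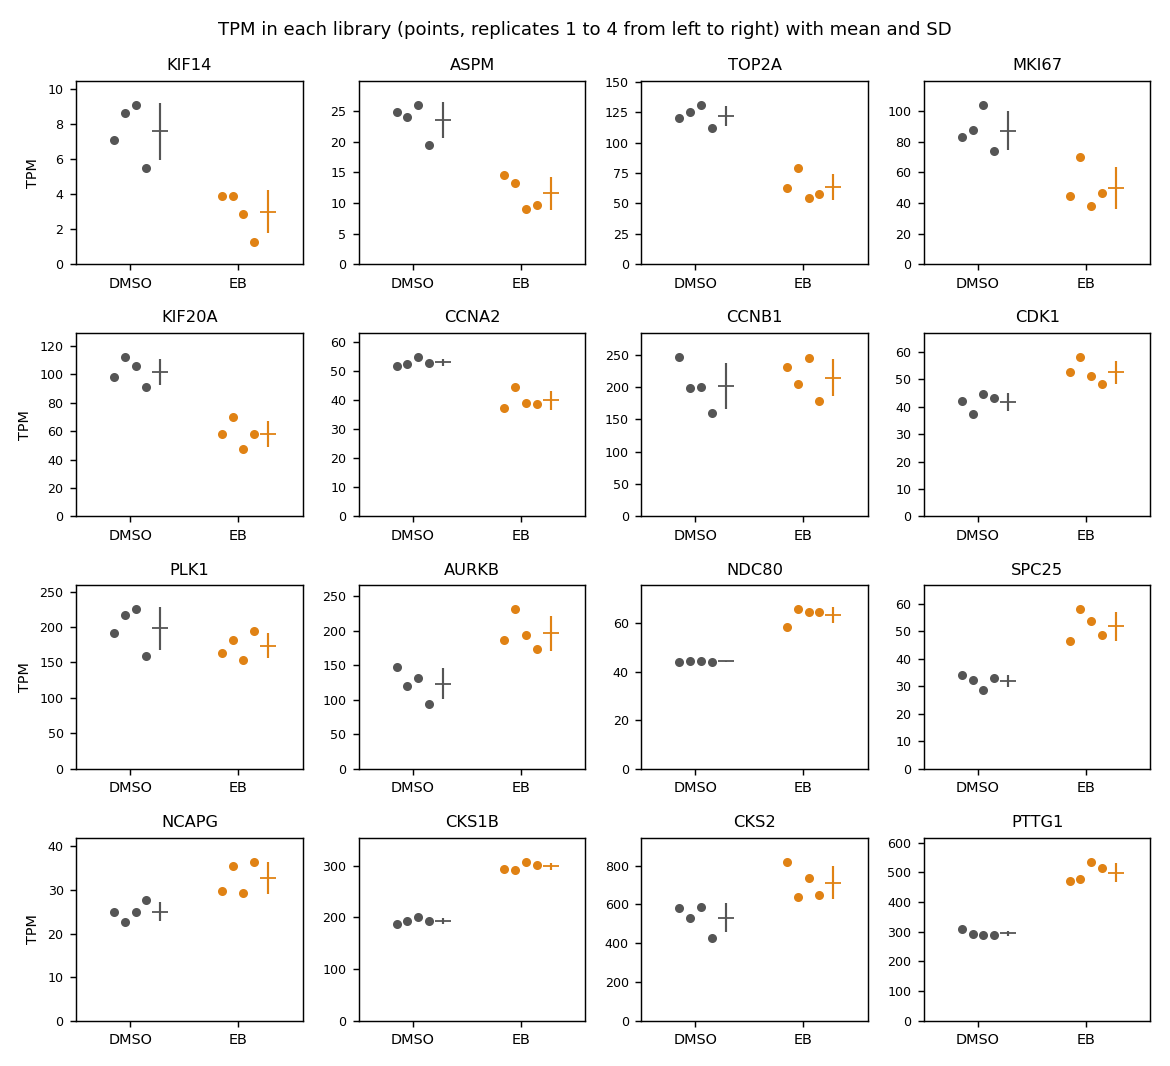
TPM of 16 of the genes in each library, on linear axes from 0, with the points of replicates 1 to 4 from left to right and the mean with its SD beside them (DMSO grey, EB orange, n = 4 each). KIF14, ASPM, TOP2A, MKI67, KIF20A and CCNA2 lay lower with EB, CCNB1 and PLK1 overlapped, and AURKB, NDC80, SPC25, NCAPG, CKS1B, CKS2 and PTTG1 lay higher; CDK1 did not overlap but missed the adjusted threshold.

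Among 8 genes of the spindle and cytokinesis 4 fell and none rose, beside the same shares of all genes, and 2 of the falls held with the length trend removed. ASPM, which focuses the spindle poles, was at 24.8, 24.1, 26 and 19.4 TPM with DMSO and at 14.5, 13.2, 8.95 and 9.66 TPM with EB. Its log2 fold change was -0.98 ± 0.17 (limma adjusted p = 0.00233). ECT2, the exchange factor that activates RhoA at the cleavage furrow, was at 46.8, 53.1, 50.5 and 40.2 TPM with DMSO and at 30.1, 35, 26.1 and 17.8 TPM with EB. Here too the groups did not overlap, and the log2 fold change was -0.82 ± 0.20 (limma adjusted p = 0.0101). The furrow scaffold ANLN fell by 0.57 (limma adjusted p = 0.0132) and the spindle protein DLGAP5 by 0.36 on the log2 scale (limma adjusted p = 0.031). DLGAP5 no longer passed with any 1 library left out other than DMSO replicate 4 or EB replicate 2 (limma adjusted p = 0.0556 to 0.0902) or under median-ratio scaling (-0.23, limma adjusted p = 0.111). NUSAP1 (-0.23), PRC1 (-0.17), TPX2 (-0.14) and HMMR (0.34) did not pass.

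The subunits of condensin I, the ring complex that compacts mitotic chromosomes, moved in both directions. SMC2, an ATPase arm of the ring, was at 13.8, 12.1, 11.4 and 8.96 TPM with DMSO and at 5.82, 7.13, 7.24 and 6.54 TPM with EB. All EB libraries were lower, and the log2 fold change was -0.70 ± 0.15 (limma adjusted p = 0.0051). SMC4, the other arm, went from 83.4 to 121 TPM with DMSO to 47 to 75.7 TPM with EB (-0.70 ± 0.17, limma adjusted p = 0.0111). NCAPG, a regulatory subunit, was at 25, 22.6, 24.9 and 27.7 TPM with DMSO and at 29.8, 35.4, 29.2 and 36.5 TPM with EB. It rose by 0.37 ± 0.13 (limma adjusted p = 0.0421), but without any 1 library other than DMSO replicate 4 it did not pass (limma adjusted p = 0.054 to 0.119), nor did it under quantile normalization (0.45, limma adjusted p = 0.0615) or with the mitochondrial genes removed (0.19, limma adjusted p = 0.358). NCAPD2 (-0.47, limma adjusted p = 0.0648) and NCAPH (-0.11, limma adjusted p = 0.456) did not pass, and NCAPD2 fell without DMSO replicate 4 (-0.63, limma adjusted p = 0.00398) and without EB replicate 2 (-0.56, limma adjusted p = 0.0496). NCAPD2 also fell under median-ratio scaling (-0.34, limma adjusted p = 0.0189), quantile normalization (-0.60, limma adjusted p = 0.00224) and without the mitochondrial genes (-0.65, limma adjusted p = 0.00235), and NCAPH fell under the last of these (-0.29, limma adjusted p = 0.0264).

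The direction of change followed the length of the transcript in these genes and in the table as a whole. The length is that of the canonical transcript in GENCODE release 44 on hg38, with a median of 3095 nt in the 55 genes and of 3222 nt in all nuclear genes tested. In the shortest of 4 equal classes of genes, up to 1972 nt, 6 of 11 members rose and none fell, with a median log2 fold change of 0.33, and 34.3% of all genes rose and 9.16% fell, with a median of 0.29. From 1973 to 3222 nt, 2 of 18 members rose and 4 fell (median -0.09), as did 15.2% and 17% of all genes. From 3223 to 5025 nt, 1 of 14 rose and 4 fell (median -0.32), as did 7.46% and 29.4% of all genes. In the longest class, from 5026 nt, none of 12 rose and 8 fell (median -0.70), while 3.9% of all genes rose and 44.8% fell (median -0.47).

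Spearman's rho between length and log2 fold change was -0.75 over the 55 genes and -0.48 over 11685 nuclear genes, which come from the same 8 libraries and are not independent replicates. Library by library, the deviation of a gene from its mean over all libraries changed per doubling of length by 0.10, 0.15, 0.18 and 0.10 on the log2 scale in DMSO replicates 1 to 4 and by -0.14, -0.06, -0.19 and -0.14 in EB replicates 1 to 4. All DMSO slopes were positive and all EB slopes negative, so the groups did not overlap. The deviations are taken from the mean over all libraries, so slopes of both signs arise by construction. A sign is relative to the other libraries and does not give the trend within a library by itself. RNA quality and fragment sizes of the libraries are not given in the sources used here, and their part in the trend was not tested.

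**Figure D3:**
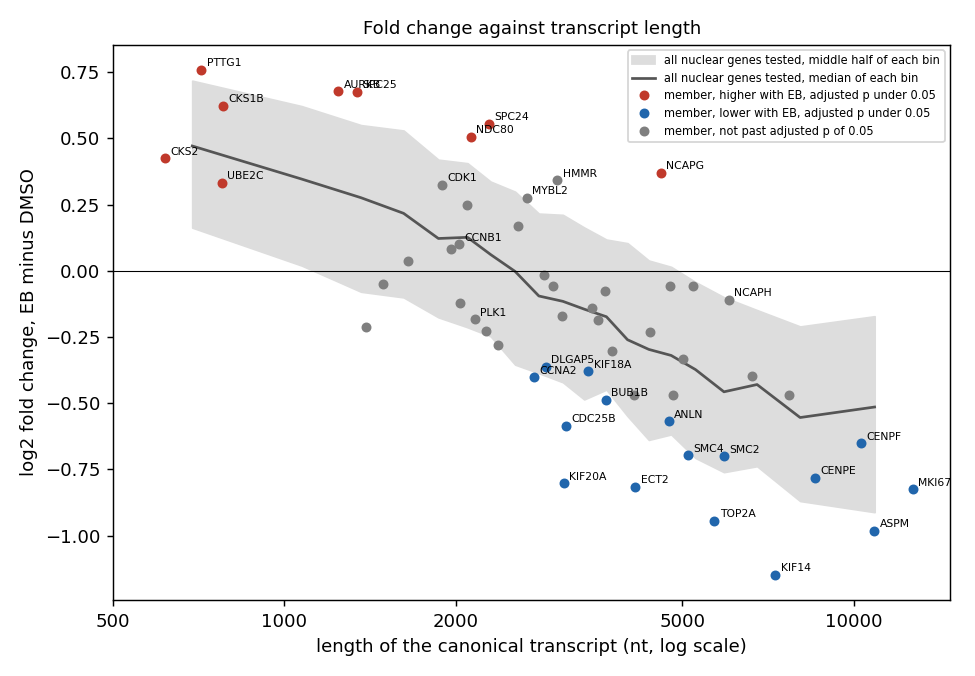
Log2 fold change (EB minus DMSO) against the length of the canonical transcript (nt, log scale). The line and band are the median and the quartiles of all nuclear genes tested in 20 bins of length, the points are the 55 genes, coloured as rising (red), falling (blue) or not past the test (grey). The line falls from 0.47 in the shortest bin to -0.51 in the longest, CKS2, PTTG1, CKS1B and UBE2C sit at the short end and MKI67, ASPM and CENPF at the long end, and NCAPG, KIF20A, ECT2 and KIF14 are among the genes outside the band.

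The comparison was therefore repeated after a smooth trend on transcript length had been taken out of each library. In this form 8 of the 55 genes rose and 12 fell (14.5% and 21.8%), against 22.1% and 20.5% of 11685 genes, and the medians of the log2 fold change were -0.02 over the 55 and 0.02 over all genes. Of the 9 rises 6 were kept, namely NCAPG (0.68), SPC24 (0.52), NDC80 (0.44), SPC25 (0.43), AURKB (0.41) and PTTG1 (0.40). Of the 16 falls 9 were kept, namely KIF20A (-0.69), KIF14 (-0.66), ECT2 (-0.56), TOP2A (-0.54), CDC25B (-0.47), ASPM (-0.44), CCNA2 (-0.34), SMC4 (-0.33) and BUB1B (-0.29). The rises of CKS1B, CKS2 and UBE2C no longer passed, nor did the falls of MKI67, CENPE, CENPF, SMC2, ANLN, DLGAP5 and KIF18A. With a trend on length and GC content removed, 10 of the 55 genes rose and 15 fell, against 24.4% and 21.8% of all genes. In that form CKS1B (0.28, limma adjusted p = 0.03) and HMMR (0.43, limma adjusted p = 0.0249) rose. DLGAP5 (-0.29, limma adjusted p = 0.0104), KIF18A (-0.23, limma adjusted p = 0.0494) and CDCA8 (-0.30, limma adjusted p = 0.0433) fell.

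A further 5 genes passed with the trend on length alone removed that had not passed on the values as deposited. MYBL2 (0.32, limma adjusted p = 0.0219) and NCAPH (0.32, limma adjusted p = 0.0359) rose, the latter with the opposite sign to its value before, -0.11, and to its fall without the mitochondrial genes. AURKA (-0.21, limma adjusted p = 0.0465), CCNB2 (-0.26, limma adjusted p = 0.0298) and CENPA (-0.45, limma adjusted p = 0.0205) fell. CCNB1 (0.01), CDK1 (0.20), PLK1 (-0.24), FOXM1 (-0.00) and CDC20 (-0.14) passed in neither form. The 3 subunits of the NDC80 complex that rose did so in both forms, while in condensin I NCAPG and NCAPH rose and SMC4 fell once the trend was removed. Removing the trend also removes any change that long or short genes share for another reason.

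**Figure D4:**
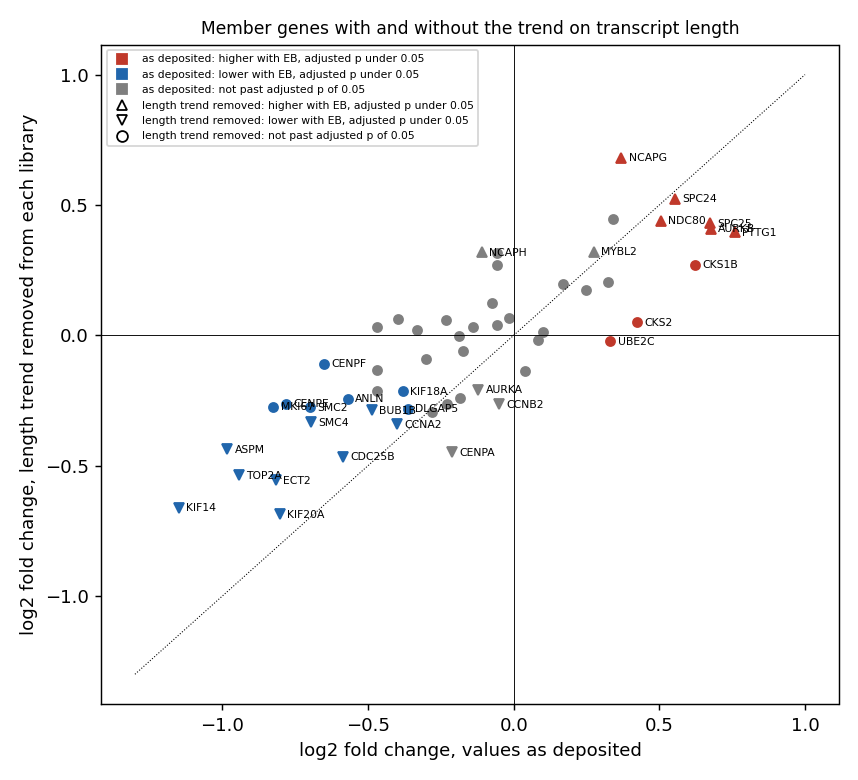
Log2 fold change of the 55 genes on the values as deposited (x axis) and with the trend on transcript length removed from each library (y axis); colour gives the call as deposited and the symbol shape the call after removal, and the dotted line marks equal values. NCAPG, NCAPH and MYBL2 lie above the dotted line with upward triangles, and MKI67, CENPE, CENPF, SMC2, ANLN, KIF18A and DLGAP5 are blue circles, whose fall no longer passed.

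Under all 18 alternative settings, not counting those on the fold threshold, 10 of the 25 changes held their direction and passed the test. Those that fell were KIF14, ASPM, TOP2A, ECT2, KIF20A and SMC4, and those that rose were AURKB, PTTG1, NDC80 and SPC25. KIF14 (chr1:200551497-200620751) and ASPM (chr1:197084121-197146694) lie on the minus strand of chromosome 1 in hg38, and TOP2A (chr17:40388525-40417896) and AURKB (chr17:8204733-8210600) on the minus strand of chromosome 17. KIF20A (chr5:138178719-138187723) overlaps CDC23 and BRD8 on the opposite strand, and SMC4 (chr3:160399274-160434954) overlaps IFT80 and TRIM59 likewise.

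Other genes around the mitotic program were read from lists that are not part of the 55, and each list is given beside the background of 15.2% higher and 25.1% lower, or of 22.1% and 20.5% where the length trend was removed. Of 17 regulators of mitotic entry, 3 rose and 3 fell (median log2 fold change -0.12). PKMYT1, the kinase that holds CDK1 inactive at the membrane, rose from 34.7 ± 8.98 to 71.9 ± 14 TPM (SD, n = 4 each, log2 fold change 1.04, limma adjusted p = 0.00409), while the ubiquitin ligase gene G2E3 (-0.68) and GTSE1, a microtubule and p53 regulator (-0.60), fell. With the length trend removed G2E3, whose transcript has 5770 nt, did not pass (-0.26, limma adjusted p = 0.244). Of 16 subunits and partners of the anaphase-promoting complex, 3 rose and 2 fell (median 0.06), with ANAPC11 at 0.94 and CDC26 at 0.70 among the first and ANAPC1 at -0.75 among the second. ANAPC11 and CDC26 have transcripts of 638 and 871 nt and ANAPC1 of 7762 nt, and with the length trend removed ANAPC11 (0.57, limma adjusted p = 0.0922) and CDC26 (0.37, limma adjusted p = 0.067) did not pass.

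Of 15 genes of cohesin, the ring that holds sister chromatids together, and its regulators, 1 rose and 6 fell (median -0.57). STAG2 fell from 45.5 ± 4.96 to 17.3 ± 5.2 TPM (log2 fold change -1.39, limma adjusted p = 0.00157), the loader NIPBL by 0.86 and the kleisin RAD21 by 0.84 on the log2 scale. With the length trend removed 2 rose and 3 fell (median -0.08), and STAG2 (-0.95), RAD21 (-0.64) and NIPBL (-0.32) still fell. Among 32 further genes of the centromere and kinetochore 8 rose and 2 fell (median 0.15), and with the length trend removed 10 rose and 1 fell. CENPW (0.91) and CENPQ (0.81), of the constitutive centromere network, rose, and KNL1 (-0.97), the scaffold that recruits the checkpoint, fell, and these 3 held without the trend.

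Of 30 further genes of the spindle and cytokinesis 4 rose and 8 fell (median -0.23). GAS2L3, a linker of actin and microtubules, was at 14.4, 17.3, 10.6 and 10.7 TPM with DMSO and at 2.5, 1.57, 2.21 and 2.56 TPM with EB, a log2 fold change of -2.14 ± 0.18 (limma adjusted p = 6.76e-05). This was larger in size than any change among the 55 genes. The citron kinase gene CIT fell by 1.47 on the log2 scale, and HAUS7, of the augmin complex, rose by 1.39. With the length trend removed 4 of the 30 rose and 3 fell (median 0.04), and GAS2L3 (-1.73), CIT (-0.94) and HAUS7 (1.14) still passed. Of the 3 genes particular to condensin II, NCAPH2 rose (0.85, limma adjusted p = 0.0124) and the other 2 did not pass, and all 3 rose with the length trend removed (median 0.37). Of 11 genes of the MuvB and DREAM complexes, which repress these promoters in resting cells and, with B-MYB, activate them later, 1 rose and 4 fell (median -0.42). RBL2, the pocket protein p130 of DREAM, fell from 35.3 ± 4.59 to 13.7 ± 3.05 TPM (log2 fold change -1.31, limma adjusted p = 0.000544), and E2F5 (-0.62) and TFDP1 (-0.53) fell too. With the length trend removed none of the 11 rose and 3 fell (median -0.09), namely RBL2 (-0.98), E2F5 (-0.72) and TFDP1 (-0.49).

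Genes of the preceding phase of the cycle were counted in the same way. Of 27 G1/S genes tested, 9 rose and none fell (median 0.28), and with the length trend removed, where the shares of all genes were 22.1% and 20.5%, 16 rose and 1 fell (median 0.33). E2F1, the factor that starts S phase, rose from 52.9 ± 12 to 110 ± 7.03 TPM (log2 fold change 1.07, limma adjusted p = 0.00184), and the replicative helicase genes CDC45 (1.04) and GINS2 (0.89) rose as well. Of 6 CDK inhibitor and RB genes tested, 1 rose and 3 fell (median -0.49). CDKN1A, the p53 target that encodes p21, was at 17.6, 13.5, 15.4 and 8.14 TPM with DMSO and at 37.3, 38, 33.4 and 31.2 TPM with EB (log2 fold change 1.34 ± 0.21, limma adjusted p = 0.00129). CDKN1B, which encodes p27, fell by 0.86 and RB1 by 0.78 on the log2 scale. The difference between these lists and the 55 genes was not tested.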

How the data were processed

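RNA was sequenced from PANC-1 cells treated with EB or DMSO, in 4 libraries per group. The authors deposited 1 table of TPM, made per library and not pooled; the methods name CLC Genomics Workbench for trimming, mapping and normalization, list HISAT2 and StringTie among additional tools, and name both GrCM38 and hg38 as the genome. All 20263 identifiers are human Ensembl genes, and GENCODE release 44 on hg38 gave a symbol for 20148 of them. The table holds no read counts, so the depth of each library is unknown here and no interval for counting error is given. P-values measure the spread between these libraries.

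TPM were used as deposited, as log2(TPM + 1), which understates the change of low genes. Genes that reached 1 TPM in 4 or more libraries were fitted with limma 3.58.1 in R 4.3.3 (lmFit and eBayes, no trend or block), with Benjamini-Hochberg adjustment over 11725 genes. The exact two-sided permutation test used the 70 assignments of libraries. For the length trend, a natural spline with 5 degrees of freedom on transcript length was fitted in each library to the deviation of each gene from its mean over the libraries, and subtracted. Only the main limma fit was tested on simulated data, with random values drawn independently around the DMSO means. It recovered 68% of 200 genes given a known change and called 10 unchanged genes. The removal of the length trend, the other scalings and the permutation test were not tested in this way. Tables and plots were made with Python 3.11.15, pandas 2.3.3 and matplotlib 3.10.9.

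The members and all lists were chosen with earlier results of these data known. Values in every library are given for 14 textbook genes of their roles, for the 6 largest rises and the 6 largest falls at an adjusted p under 0.05, and for the gene with the largest absolute change in each role; of other lists at most the 3 genes with the largest absolute change that passed are named. NCAPG and GAS2L3 are given in full for their place in a comparison, after their values were seen. The alternatives were median-ratio scaling, quantile normalization, a pseudocount of 0.1, a filter at 5 TPM or none, removal of the 13 mitochondrial genes with rescaling, an intensity trend, removal of the trend on length or on length and GC content, leaving out each library, the replicate number as a block, an absolute log2 fold change above 1, and the adjusted p with the fold threshold. Protein sequences were not used here.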

Additional observations from a re-analysis of the deposited data

Results flagged for a closer look

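In 110 groups of 4 libraries, 2 for each of the 55 genes, a library was singled out when its gap to the nearest other library, divided by the range of the group, exceeded Dixon's critical value at the 95% level. Chance alone gives this in about 1 of 20 groups, and it occurred in 6 of the 110. DMSO replicate 4 accounted for 4 of the 6. It was the lowest DMSO library for the kinase AURKA, at 79.7 TPM against 95.1 to 97.4 TPM, and for CDC20, the activator of the anaphase-promoting complex, at 237 TPM against 350 to 372 TPM. The kinesin KIF4A stood there at 35.3 TPM against 46.1 to 47.5 TPM, and the condensin subunit NCAPD2 at 92.9 TPM against 146 to 148 TPM. The same library had 39% of its TPM in mitochondrially encoded genes. Its part in these low values was not tested.

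The remaining pair lay in other libraries. The checkpoint gene BUB3 was at 47.6 TPM in EB replicate 4 against 55.6 to 57.1 TPM in the other EB libraries. The securin PTTG1 was at 308 TPM in DMSO replicate 1 against 288 to 291 TPM in the other DMSO libraries, all far below the EB libraries.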

How the results depend on the processing

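The 9 rises and 16 falls became 5 to 11 and 11 to 25 when each library was left out in turn. Over all genes 10.8% to 15.6% rose and 17.7% to 37% fell in these settings. Without DMSO replicate 2, EB replicate 3 or EB replicate 4, 5 of the 55 genes rose, beside 12.1%, 10.8% and 13.8% of all genes. Without DMSO replicate 4, 25 fell, beside 37% of all genes. Of the 25 changes 16 held with each library left out, and 9 were lost with at least 1 left out; fewer libraries were then compared. With the mitochondrial genes removed 29 genes fell, and at an absolute log2 fold change above 1 and an unadjusted p under 0.05 1 gene fell, KIF14. The median log2 fold change of the 55 genes, -0.18, was -0.053 under median-ratio scaling, -0.37 without the mitochondrial genes, -0.022 with the length trend removed and -0.032 with the length and GC trend removed. Among genes that passed in either form, the sign turned in NCAPH, which became 0.32 and 0.33 with the length, or length and GC, trend removed, and of UBE2C, which became -0.022 and -0.032; these steps remove the trend by construction. A change of sign without passing in either form occurred in 17 genes under at least 1 alternative. The cause of the other shifts was not tested. Correlations of same-numbered libraries, 0.183, 0.0463, -0.0879 and 0.284 for replicates 1 to 4, did not settle whether the replicate numbers pair the libraries. Those of replicates 1 and 4 were the highest of all pairs. DMSO replicate 2 correlated slightly better with EB replicate 1 (0.0591), and DMSO replicate 3 best with EB replicate 2 (0.126). With the replicate number as a block 9 genes rose and 17 fell, against 19% and 30.1% of all genes. The 25 calls were kept and NCAPD2 was gained. TPM hold no depth, so small changes of low genes such as KIF14 cannot be set against counting error.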
